A study of Drosophila melanogaster with 72 samples.

Results

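The maltases and the amylase of Drosophila melanogaster break dietary starch and sugars into glucose. The genes described here are Mal-A1, Mal-A2, Mal-A3, Mal-A4, Mal-A6, Mal-A7, Mal-A8, Mal-B1, Mal-B2 and Amy-p, which were chosen by FlyBase symbol as rows of the deposited gene counts and not by their values. They are 10 of the 17324 features counted, and all 10 passed the filter on low counts that left 12470 genes for testing. The samples were whole males 3 to 5 days old, pooled 10 to a library, so that gut, testis, fat body, muscle and head were read together. The males carried 1 of 6 mitochondrial haplogroups (Beijing: B38, B39; Ithaca: I02; Netherlands: N01, N02, N23) and 1 of 6 Y haplotypes (Beijing: B04, B11; Netherlands: N03, N07; Zimbabwe: ZH23, ZW139), all from the Global Diversity Lines. Every replacement line on either side of the crosses carried the nuclear background 4361, and each of the 36 combinations had 2 libraries from separate crosses, 72 in all and 12 per haplotype. Each haplogroup and each Y haplotype came from a single line. An effect of a haplotype thus cannot be told apart from any other inherited difference of its line. The mother gives a son his X chromosome with his mitochondria, so an effect of the haplogroup and an effect of the maternal X or cytoplasm cannot be told apart. The flies were raised at 25 °C on sucrose-yeast medium, and no sugar treatment was part of the design.

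Alpha-amylase cuts starch and glycogen into maltose and short glucose chains. Maltases are alpha-glucosidases that release glucose from the ends of maltose, sucrose and such chains, and the gut cells then take the glucose up. In flies these enzymes are made mainly in the midgut and secreted into its lumen, and their transcripts are known to fall when the food is rich in glucose. The distinct substrates of the single maltases are less well worked out than the family's shared activity, so the genes are described below by their place in the genome and by what changed.

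In the annotation of assembly BDGP6.54, the Mal-A genes stand in a cluster of 8 genes on chromosome arm 2R that spans 24298 bases, from 8449664 to 8473961, and includes Mal-A5. Mal-A1 (FBgn0002570, 8449664 to 8451904), Mal-A3 (FBgn0002571, 8455909 to 8457892) and Mal-A7 (FBgn0033296, 8468646 to 8471663) lie on the minus strand. Mal-A2 (FBgn0002569, 8453627 to 8455782), Mal-A4 (FBgn0033294, 8458815 to 8460884), Mal-A6 (FBgn0050360, 8465158 to 8467595) and Mal-A8 (FBgn0033297, 8471954 to 8473961) lie on the plus strand. Neighbours are close: 126 bases separate Mal-A2 from Mal-A3, 290 separate Mal-A7 from Mal-A8, and 65 separate Mal-A5 from Mal-A6. Mal-B1 (FBgn0032381, 11847226 to 11849169) and Mal-B2 (FBgn0032382, 11849958 to 11852881) follow each other on the plus strand of arm 2L, within Pde1c on the opposite strand and with 0 bases in common with its exons. Amy-p (FBgn0000079, 17118636 to 17120303, minus strand), the proximal copy of the duplicated amylase gene, lies on arm 2R beside its near-identical distal copy Amy-d (17124764 to 17126369, plus strand), and both are read away from each other. Reads that match both amylase copies, or several maltases, may have been set aside or split by the authors' counting, so counts of these copies are uncertain. The strand setting of that counting is not given, and the last exon of Mal-A1 shares 82 bases with Cyp4e1 on the opposite strand, while Mal-A8 shares 6 bases with mtt.

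The libraries held 2454024 to 7671784 counts in genes, with a median of 4792638. The 10 genes together took 0.346% to 0.885% of them, with a median of 0.587%, and the smallest count of any of the 10 genes in a library was 90, for Mal-B1. Levels are given as CPM, which are counts scaled to a common library size with TMM factors. Reads came from 3′ ends and were not divided by gene length, so levels of different genes are listed side by side and not ranked. Over the 72 libraries the mean was 2051 CPM for Mal-A1, 73.1 for Mal-A2, 122 for Mal-A3, 106 for Mal-A4, 1068 for Mal-A6, 710 for Mal-A7, 173 for Mal-A8, 89.3 for Mal-B1, 476 for Mal-B2 and 1114 for Amy-p. The eggshell genes, which mark ovaries, were near 0, at a summed 3.57 to 41.1 CPM over 11 genes, and the 8 testis markers summed to 4623 to 9178 CPM. Since whole flies were read, fewer midgut cells and less RNA per midgut cell cannot be told apart in any of the results.

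Some libraries stood apart from others of their own combination. The gene CG31326, singled out after its values were seen, was at 0 to 2.03 CPM in 43 libraries and at 7.56 to 138 CPM in the other 29, with none between. The photoreceptor surface gene chp divided the same libraries, at no more than 2.16 CPM in the 43 and at 3.74 to 28.6 CPM in the 29. The upper range held 10 of the 12 libraries of Y haplotype B11, 10 of 12 of ZH23, 4 of ZW139, 3 of B04, 2 of N07 and 0 of N03. It held 8 of the 12 libraries of haplogroup B39 and 3 to 6 of each other haplogroup. In 9 of the 36 combinations the 2 replicates lay in different ranges, and in 5 of these 9 both replicates were of batch 1. In the other 4 the upper library was of batch 1 and the lower of batch 2. Of the libraries of N01, N02 and N23 the upper range held 9 of 18 in batch 1 and 5 of 18 in batch 2. In addition, replicate 2 of haplogroup N23 with Y haplotype N03 had 29.4 CPM of asRNA:CR44894, unlike the other N23 libraries. Results that turn on these libraries are given with and without that difference.

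Each gene was tested for differences among haplogroups, among Y haplotypes and for their interaction by edgeR's quasi-likelihood F test with batch as a term, and p-values were adjusted over all 12470 genes by the Benjamini-Hochberg method. A gene was called at an adjusted p under 0.05. Among the haplogroups 1 of the 10 genes was called, Mal-A4, where the share over all genes tested was 2.04%. Among the Y haplotypes 2 were called, Mal-B1 and Amy-p, where the share was 4.15%. In the interaction 0 were called and the share was 0.00%. There 239 of the 12470 genes had an unadjusted p under 0.05 by edgeR, Mal-B2 among them. That is a smaller share than the 0.05 that evenly spread p-values would give. DESeq2 called 10 genes in the interaction, none of the 10 described here. In the contrasts of each haplotype with the mean of the other 5 of its kind, 6 calls were made, all of them higher: Mal-A4 in B38 and in I02, Mal-B2 in I02, Mal-B1 in Y B11 and in Y ZH23, and Amy-p in Y B11. Mal-A1, Mal-A2, Mal-A3, Mal-A6, Mal-A7 and Mal-A8 had no call in any of these tests.

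**Figure D1:**
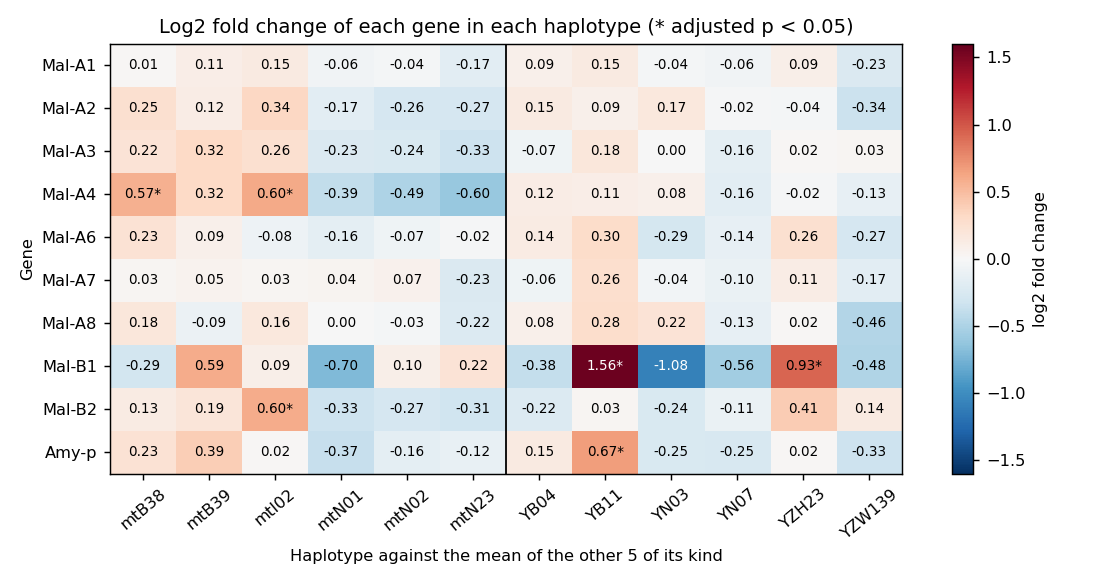
Log2 fold change of each of the 10 genes (rows) in each haplotype against the mean of the other 5 of its kind (columns), with haplogroups left of the line and Y haplotypes right of it. Asterisks mark an adjusted p under 0.05 over all genes tested, and the 6 marked cells run from 0.57 to 1.56.

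Mal-A4 was lower in the 3 haplogroups from the Netherlands than in B38 and I02. Its 12 libraries ran from 96.4 to 216 CPM in B38 with a median of 133, from 91.3 to 180 in B39 with a median of 117, and from 72.6 to 244 in I02 with a median of 148. In N01 they ran from 39.6 to 136 CPM with a median of 81.3, in N02 from 48.4 to 97.0 with a median of 79.0, and in N23 from 47.7 to 140 with a median of 62.5. The groups overlapped at their edges, but 12 of 12 libraries of B38, 11 of B39 and 11 of I02 lay above the median of the other 60, against 3 of N01, 0 of N02 and 1 of N23. The mean was 143 CPM ± 39.3 in B38, 146 ± 41.8 in I02, 80.6 ± 30.2 in N01, 73.9 ± 14.7 in N02 and 70.5 ± 26.9 in N23 (SD, n = 12 each). Mal-A4 passed the F test among haplogroups with an adjusted p of 0.00158 by edgeR.

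Against the mean of the other 5 haplogroups, the log2 fold change of Mal-A4 was 0.57 ± 0.13 (SE) in B38, with an adjusted p of 0.00551, where 6.85% of all genes were called higher. It was 0.60 ± 0.13 in I02, with an adjusted p of 0.0208, where 0.337% were called higher. The corresponding log2 fold changes were -0.39 in N01, -0.49 in N02 and -0.60 in N23, none of them called (adjusted p = 0.69, 0.902 and 0.0678). Taken pair by pair, B38 exceeded N01, N02 and N23 by 0.80, 0.89 and 0.98 on the log2 scale, and I02 exceeded them by 0.83, 0.91 and 1.01, with all 6 differences called at adjusted p values from 0.00287 to 0.0259. Of all genes, 0.682%, 0.850% and 1.04% were called higher in the 3 contrasts of B38, and 0.200%, 0.144% and 0.249% in those of I02. B39, with a mean of 125 CPM ± 29.2, differed from none of the other haplogroups by a call.

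The direction was the same on every Y. Within each of the 6 Y haplotypes the mean of Mal-A4 over the 6 libraries of N01, N02 and N23 was lower than that over the 6 libraries of B38, B39 and I02, at 0.455 to 0.703 of it. B38 was above the mean of the other haplogroups on 6 of 6 Y haplotypes, and I02 on 5 of 6, the exception being Y N03 at 0.985 of the others. In batch 1 alone, where each haplogroup from the Netherlands has 6 libraries, the F test gave an adjusted p of 0.00562 and the contrasts 0.58 for B38 and 0.62 for I02. Batch 2 holds no library of B38, B39 or I02, and the F test among its 3 haplogroups gave 0.97. Over each of the 72 libraries left out in turn the adjusted p of the F test for Mal-A4 stayed between 0.000412 and 0.00588.

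The B38 and I02 contrasts of Mal-A4 were less firm than its F test. Of the 12 libraries of B38, 4 had over 20% of their reads aligned to several places, against 1 of I02, 1 of N23 and 0 elsewhere. Without these 6 libraries Mal-A4 in B38 was at 0.53 with an adjusted p of 0.105, while I02 was at 0.73 with 0.00305. The call in I02 ended without replicate 2 of B04, of B11 or of N07 or replicate 1 of ZH23, each combined with I02, at 0.51 to 0.59 and adjusted p values of 0.0594, 0.0755, 0.071 and 0.0518.

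**Figure D2:**
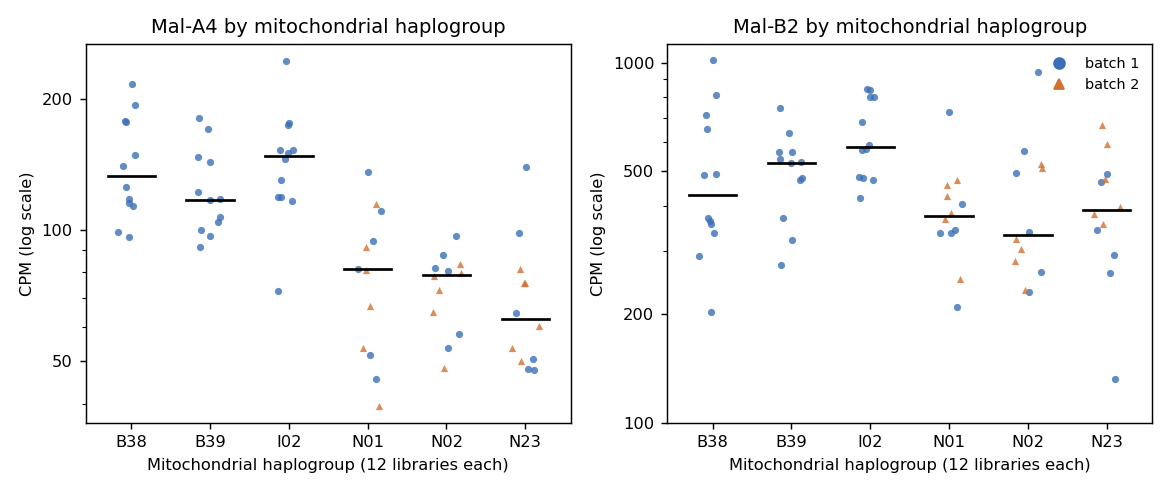
Mal-A4 (left) and Mal-B2 (right) in each library, in CPM on a log scale, by mitochondrial haplogroup with 12 libraries each; circles are batch 1, triangles batch 2 and bars the medians. For Mal-A4 the medians of N01, N02 and N23 (62.5 to 81.3 CPM) lie below those of B38, B39 and I02 (117 to 148 CPM), and for Mal-B2 that of I02 is the highest at 583 CPM.

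Mal-A3, which lies next to Mal-A4 on the opposite strand, also had lower means in the 3 haplogroups from the Netherlands than in the other 3, but no call. Its mean was 136 CPM ± 28.1 in B38, 144 ± 23.5 in B39 and 141 ± 49.9 in I02, and 106 ± 27.3 in N01, 104 ± 21.1 in N02 and 98.9 ± 19.5 in N23 (SD, n = 12 each). The 12 libraries of B39 all lay above the median of the other 60, 112 CPM. The F test of Mal-A3 had an adjusted p of 0.142, which was 0.0298 without the 6 libraries of over 20% multiply aligned reads. Mal-A2 had 12 of 12 libraries of I02 above the median of the other 60 (61.7 CPM), and its log2 fold change there was 0.34. That count takes no account of batch. The 18 libraries of batch 2, none of them of I02, ran from 40.6 to 61.4 CPM and so all lay below that median. The F test of Mal-A2 among haplogroups, which has a batch term, had an adjusted p of 0.335.

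Mal-B2 was higher in I02. Its 12 libraries ran from 422 to 843 CPM in I02 with a median of 583, and all 12 lay above the median of the other 60, 401 CPM. The other haplogroups overlapped with I02 throughout: B38 ran from 203 to 1017 CPM with a median of 430, B39 from 275 to 747 with a median of 528, N01 from 210 to 730 with a median of 375, N02 from 231 to 942 with a median of 331 and N23 from 132 to 670 with a median of 389. The mean was 630 CPM ± 157 in I02 and 393 ± 131 in N01, the haplogroup with the lowest mean (SD, n = 12 each). The log2 fold change in I02 was 0.60 ± 0.13 with an adjusted p of 0.0238 by edgeR. Within each of the 6 Y haplotypes the I02 mean was above that of the other haplogroups, by 1.24 to 1.81 times. Of the 15 pairs of haplogroups, I02 over N01 was called, at 0.77 ± 0.18 (adjusted p = 0.0433), a contrast in which 0.200% of all genes were called higher.

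The F test of Mal-B2 among haplogroups just missed the threshold, at an adjusted p of 0.0527. Its I02 contrast was not called by DESeq2, which was fitted without interaction here, at 0.52 (adjusted p = 0.0765). By edgeR it was not called without interaction, at 0.52 (0.115), nor with a replicate block, at 0.48 (0.0540). It was also lost without I02 replicate 2 of B04, of B11 or of N07, at 0.57, 0.53 and 0.57 (adjusted p = 0.0717, 0.0707 and 0.0854). In batch 1 alone the I02 contrast of Mal-B2 was 0.61, with an adjusted p of 0.0302.

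Mal-B2 also had the smallest unadjusted p of the 10 genes in the interaction, 0.0048, with an adjusted p of 1. By DESeq2 the adjusted p of that interaction was 0.0587, and over single libraries left out it was at least 0.504 by edgeR. Its combinations spread widely on both factors. I02 with ZW139 read 802 and 837 CPM in its replicates, and B38 with ZH23 read 814 and 655. N01 with B04 read 210 and 251 CPM, and N02 with B04 read 231 and 234. Replicates were far apart elsewhere, with 364 and 1017 CPM for B38 with B04 and 942 and 281 for N02 with N07. Of the sum of squares of log2 CPM, the interaction took 41.5% for Mal-B2 against a median of 25.2% over all genes, where its degrees of freedom alone would give 35.2%.

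Mal-B1 had the largest differences of the 10 genes. Its means differed between Y haplotypes, while among replicates of a combination its level also went with that of CG31326, as described below. Its 12 libraries ran from 33.7 to 497 CPM in B11 with a median of 152 and from 27.2 to 244 in ZH23 with a median of 136. They ran from 27.3 to 194 CPM in B04 with a median of 40.7, from 22.3 to 55.6 in N03 with a median of 39.6, from 15.9 to 282 in N07 with a median of 35.6, and from 28.7 to 98.3 in ZW139 with a median of 52.9. Most libraries of B11 and ZH23 were high and those of N03 were all low, while B04 and N07 each held a few high libraries among low ones, so the groups overlapped. In B11, 11 of 12 libraries lay above the median of the other 60, and in N03 0 of 12.

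The mean of Mal-B1 was 180 CPM ± 122 in B11 and 132 ± 62.7 in ZH23, against 65.9 ± 51.7 in B04, 63.3 ± 73.6 in N07, 56.1 ± 23.7 in ZW139 and 38.7 ± 9.91 in N03 (SD, n = 12 each). The F test among Y haplotypes gave an adjusted p of 2.3e-06 by edgeR. The log2 fold change was 1.56 ± 0.21 in B11 (adjusted p = 4.0e-06), where 1.95% of all genes were called higher, and 0.93 ± 0.22 in ZH23 (0.0182), where 1.16% were. It was -1.08 ± 0.26 in N03, which was not called (adjusted p = 0.0633). B11 exceeded N03, N07 and ZW139 by 2.20, 1.77 and 1.70 on the log2 scale, and B04 less B11 was -1.62. ZH23 exceeded ZW139 by 1.17, and N03 less ZH23 was -1.67. All 6 pair differences were called, at adjusted p values from 1.66e-05 to 0.0426. In the same direction 2.36%, 1.14% and 2.60% of all genes were called for B11 over N03, N07 and ZW139, 0.682% for B04 under B11, 0.770% for ZH23 over ZW139 and 1.81% for N03 under ZH23.

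Of the sum of squares of log2 CPM of Mal-B1, 42.7% went with the Y haplotype, against a median of 8.99% over all genes tested, and 28.4% lay between replicates. B11 was above the mean of the other Y haplotypes within 6 of 6 haplogroups, by 1.31 to 3.90 times, and ZH23 within 6 of 6, by 1.01 to 4.19 times. The B11 contrast was 1.42 (adjusted p = 0.0198) in batch 1 alone and 2.10 (0.000419) in batch 2 alone. The 2 fits are not alike, since that of batch 2 covered only N01, N02 and N23 and left out the interaction. The ZH23 contrast was 1.18 (0.0556) in batch 1 alone and 0.20 (1) in batch 2 alone. It also ended without any of 4 single libraries: replicate 2 of B39 with ZH23 (0.88, adjusted p = 0.0763), replicate 1 of N01 with ZH23 (0.79, 0.216), replicate 2 of N02 with ZH23 (0.88, 0.0706) or replicate 1 of N23 with ZH23 (0.71, 0.225). The B11 contrast of Mal-B1 stayed between 1.09 and 1.71 with any library left out, lowest without replicate 2 of I02 with B11.

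**Figure D3:**
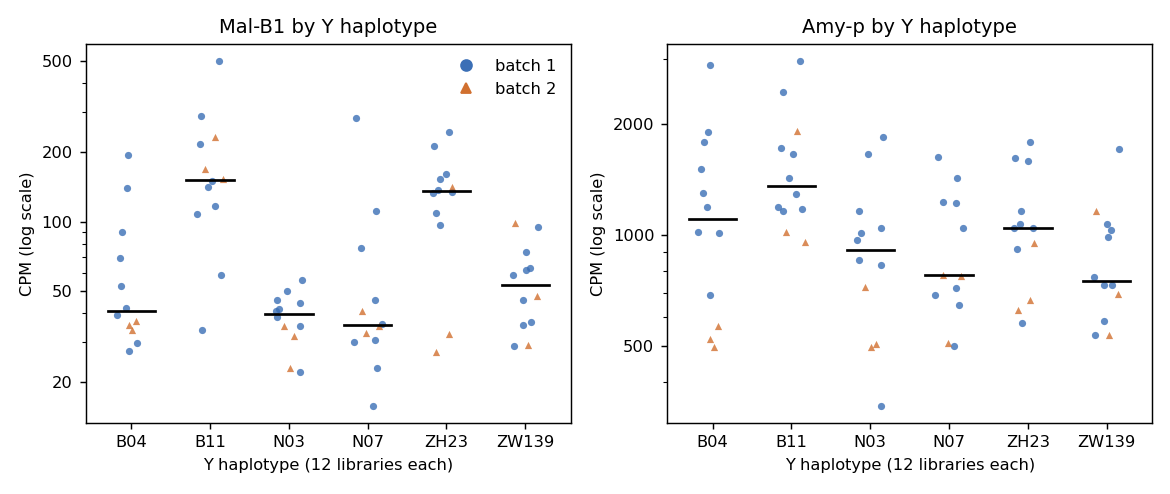
Mal-B1 (left) and Amy-p (right) in each library, in CPM on a log scale, by Y haplotype with 12 libraries each; circles are batch 1, triangles batch 2 and bars the medians. For Mal-B1 the medians of B11 (152 CPM) and ZH23 (136 CPM) lie above the other 4 (35.6 to 52.9 CPM), and each of the 2 groups also holds 2 low libraries.

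The level of Mal-B1 went with that of CG31326 library by library. The 27 libraries with the highest Mal-B1 were all among the 29 in the upper range of CG31326. In 8 of the 9 combinations whose replicates lay in different ranges, Mal-B1 was higher in the library of the upper range, by up to 14.7 times. This was so in 4 of the 5 whose replicates shared a batch and in 4 of the 4 whose replicates did not. Of I02 with B11, replicate 1 had 33.7 CPM of Mal-B1 and 0.223 of CG31326, and replicate 2 had 497 and 70.0. Of B39 with N07, replicate 1 had 30.0 CPM of Mal-B1 and 1.07 of CG31326, and replicate 2 had 282 and 71.0. In N23 with B04 the 2 replicates had 140 and 35.5 CPM of Mal-B1, and in N23 with ZH23 160 and 32.6, the higher value each time in the library with CG31326 in the upper range, which was of batch 1 while the lower was of batch 2. The exception was B38 with ZW139, with 61.4 and 62.8 CPM of Mal-B1 at 11.6 and 0.186 CPM of CG31326. The 2 libraries of a combination, also within batch 1, could thus differ in Mal-B1 by more than the means of the Y haplotypes did. Within a range the levels of the 2 genes were less closely tied, with r = 0.42 over the 29 upper libraries and an r close to 0 over the 43 lower.

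With the log2 level of CG31326 in each library added as a term, a fit chosen after the data were seen, the Y calls changed. The F test of Mal-B1 among Y haplotypes then had an adjusted p of 0.767, with log2 fold changes of 0.38 (adjusted p = 1) in B11 and -0.14 (1) in ZH23. Amy-p had 0.665 in the F test and 0.39 (1) in B11. Over all genes 10 were called among Y haplotypes in that fit, against 517 without the term. Since B11 and ZH23 hold 20 of the 29 upper libraries, the term and the Y haplotype share much of their variation. The haplogroup results were not lost: the F test of Mal-A4 had an adjusted p of 0.00503, with 0.61 in B38 (0.0125) and 0.64 in I02 (0.0337), and Mal-B2 had 0.69 in I02 (0.0133).

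**Figure D4:**
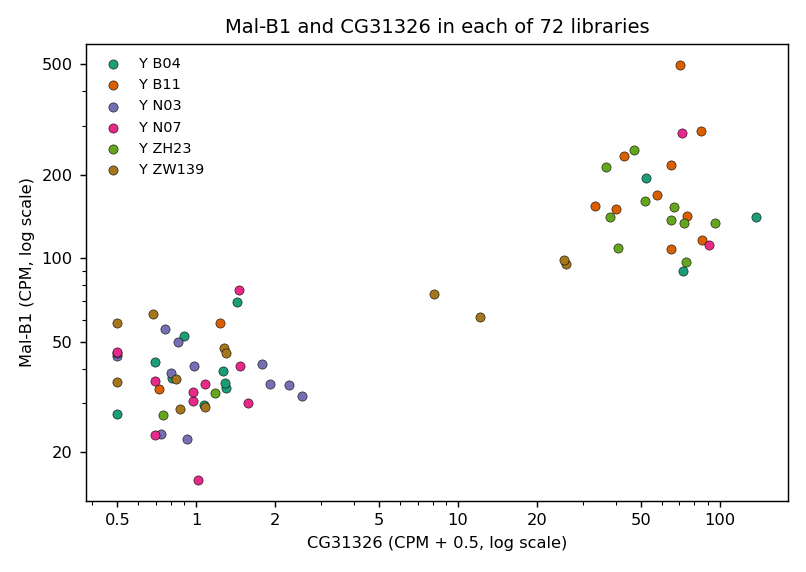
Mal-B1 (CPM, vertical axis) against CG31326 (CPM + 0.5, horizontal axis) in each of the 72 libraries, both on log scales, coloured by Y haplotype. CG31326 is empty between 2.03 and 7.56 CPM, and the 27 highest Mal-B1 values all lie to the right of that gap, with libraries of every Y haplotype except N03 on both sides of it.

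Amy-p, the proximal alpha-amylase, was higher in Y B11. Its 12 libraries ran from 959 to 2966 CPM in B11 with a median of 1359. In B04 they ran from 497 to 2889 CPM with a median of 1107, in N03 from 346 to 1845 with a median of 915, in N07 from 503 to 1630 with a median of 779, in ZH23 from 581 to 1796 with a median of 1047, and in ZW139 from 537 to 1713 with a median of 752. The groups overlapped, with 11 of the 12 libraries of B11 above the median of the other 60, 981 CPM. The mean was 1579 CPM ± 610 in B11 and 881 ± 338 in ZW139, the Y haplotype with the lowest mean (SD, n = 12 each). The F test gave an adjusted p of 0.0389, and the log2 fold change in B11 was 0.67 ± 0.15 with an adjusted p of 0.0076 by edgeR. B11 exceeded N03, N07 and ZW139 by 0.76, 0.77 and 0.83 on the log2 scale, with adjusted p values of 0.0287, 0.0449 and 0.0165. Within all 6 haplogroups the B11 mean was above that of the other Y haplotypes, by 1.07 to 2.04 times.

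The call of Amy-p among Y haplotypes was close to the threshold. It ended without any of 21 of the 72 libraries, with an adjusted p of up to 0.125 without replicate 2 of I02 with B11, the library with the highest Amy-p, and of 0.0537 without replicate 2 of N23 with N03. By limma-voom it was 0.0554, without the batch term 0.0719, in batch 1 alone 0.268 and in batch 2 alone 0.163. The B11 contrast of Amy-p was 0.61 (adjusted p = 0.27) in batch 1 alone, 0.95 (0.013) in batch 2 alone, and 0.55 (0.0943) without replicate 2 of I02 with B11. The fit to batch 2 alone covered only N01, N02 and N23 and left out the interaction, unlike that to batch 1. In 6 of the 9 combinations with replicates in different ranges of CG31326, Amy-p was higher in the library of the upper range. The distal copy Amy-d was higher in Y ZH23, at 0.54 ± 0.12 (adjusted p = 0.0122), and had an F test among Y haplotypes with an adjusted p of 0.0514.

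Mal-A6, Mal-A7, Mal-A8, Mal-A1 and Mal-A2 had no call among Y haplotypes. Mal-A6 came closest, with an adjusted p of 0.0706 among Y haplotypes. Its mean was 1233 CPM ± 256 in B11 and 1224 ± 291 in ZH23, against 903 ± 288 in N03 and 896 ± 261 in ZW139 (SD, n = 12 each), and 11 of 12 libraries of B11 lay above the median of the other 60, 938 CPM. It was called among Y haplotypes by DESeq2 (adjusted p = 0.00721) and by edgeR (0.0319) when both were fitted without interaction. With the interaction kept, edgeR called it without the 6 libraries of high multiple alignment (0.0206), with a replicate block (0.0493) and without any of 13 single libraries (lowest 0.0206). In 7 of the 11 other fits, counting that with CG31326 as a term, Mal-A6 was not called, with an adjusted p of up to 0.824. Its median was 1227 CPM in the libraries of the upper range of CG31326 and 843 in those of the lower. Mal-A7 had an adjusted p of 0.228 and its highest mean, 820 CPM ± 151, in B11. Mal-A8 had 0.293 and its lowest mean, 126 CPM ± 25.8, in ZW139, with a log2 fold change of -0.46. Mal-A1 had 0.348, with means from 1785 CPM ± 365 in ZW139 to 2225 ± 446 in B11. Mal-A2 had 0.416, and 1 of its 12 libraries of ZW139 lay above the median of the other 60.

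Put in order of their means, neighbouring haplotypes never differed by a call in any of the 10 genes, over 50 neighbouring pairs of haplogroups and 50 of Y haplotypes. The smallest adjusted p among these, 0.0558, was that of Mal-B1 between ZH23 and B04. Over all pairs, 7 of 150 (4.67%) were called among haplogroups and 9 of 150 (6.00%) among Y haplotypes. The calls among haplogroups were all of Mal-A4 and Mal-B2, and those among Y haplotypes all of Mal-B1 and Amy-p. Pairs of the same gene share haplotype means and are not independent. Over all genes tested and the same 15 pairs of each kind the shares were 0.706% and 1.07%, and in single pairs they ran from 0% to 3.90% and from 0% to 4.60%. As a median over the 10 genes the log2 fold change was 0.20 in B38, 0.15 in B39 and 0.15 in I02, and -0.20 in N01, -0.11 in N02 and -0.22 in N23, where the median over all genes was between -0.02 and 0.01. It was 0.22 in Y B11, with 10 of 10 genes above 0 but only 2 called, and -0.13 in Y N07, with 0 of 10 above 0 and 0 called. The median over all genes was -0.011 in B11 and -0.0092 in N07. Several of the 10 genes rose and fell together over the libraries, as given below, so these counts are not of independent values.

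Batch went with several of the maltases. In the term for batch 2, 5 of the 10 genes were lower by a call, Mal-A1, Mal-A2, Mal-A6, Mal-A7 and Mal-A8, and 0 were higher, where 14.6% of all genes were called lower and 14.7% higher. The log2 change ran from -0.25 ± 0.10 for Mal-A1 to -0.64 ± 0.18 for Mal-A8 among these. Mal-A2 ran from 40.6 to 61.4 CPM in the 18 libraries of batch 2 and from 42.1 to 166 in the 54 of batch 1. Batch 2 holds no haplogroup other than those from the Netherlands, each represented there by 1 replicate per combination, so its part in their levels rests on the batch term. Without that term Mal-A2, Mal-A3 and Mal-B2 would also be called among haplogroups, with adjusted p values of 0.0146, 0.0219 and 0.0251.

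The most closely tied genes of the family were not neighbours over all libraries or in batch 1, but were so in batch 2. Given as a description over 72 libraries, which share batch, depth and TMM scaling, Pearson's r of log2 CPM was highest for Mal-A2 with Mal-A8, at 0.90 (Spearman's rho 0.88, 0.88 without the 2 libraries farthest from the median), although 5 genes lie between them. It was 0.89 in batch 1 and 0.44 in batch 2, where the neighbours Mal-A7 and Mal-A8, at 0.61 over all libraries and 0.42 in batch 1, had the highest r, 0.92. Next came Mal-A6 with Amy-p, on distant parts of arm 2R, at 0.88 (rho 0.87, 0.86 without 2 libraries, 0.87 in batch 1 and 0.80 in batch 2). Mal-A1 with Mal-A7 had 0.82 (rho 0.84, 0.82 without 2 libraries) and Mal-A3 with Mal-A4 0.79 (rho 0.78, 0.81 without 2 libraries). By contrast Mal-A2 and Mal-A3, 126 bases apart, had 0.25 (rho 0.38, 0.44 without 2 libraries), and Mal-A3 with Mal-A8 had 0.11 (rho 0.24, 0.25 without 2 libraries). Mal-B2 had 0.42 or less with each of the Mal-A genes and with Amy-p. The differences between the 2 replicates of a combination had r = 0.93 for Mal-A2 with Mal-A8 and 0.92 for Mal-A6 with Amy-p over the 36 combinations. In the 18 combinations whose replicates shared batch 1 these were 0.94 and 0.95, and in the 18 whose replicates were of different batches 0.93 and 0.87. For both Mal-A2 and Mal-A8, ranks 1 to 7 were held by the same libraries, all of batch 1. These were the 6 of high multiple alignment, all of replicate 1, and, just below that limit at 19.9%, replicate 1 of I02 with ZH23. Their part in the r values of Mal-A2 with Mal-A8 was not tested. Mal-B1 was left out here because its libraries fell into the separate ranges described above.

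**Figure D5:**
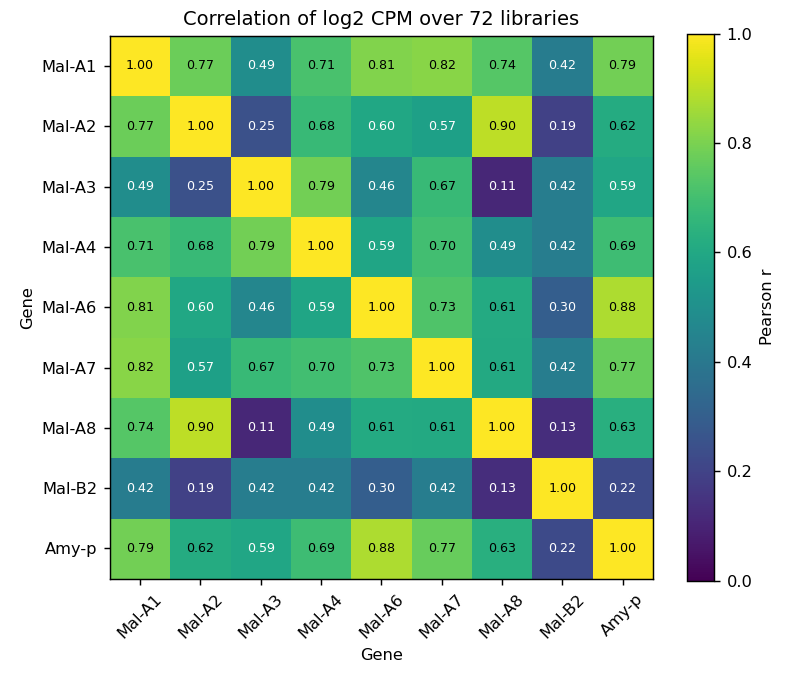
Pearson's r of log2 CPM over the 72 libraries for each pair of 9 genes, Mal-B1 left out. Mal-A2 with Mal-A8 (0.90) and Mal-A6 with Amy-p (0.88) are the closest pairs, and the row of Mal-B2 stays at 0.42 or below.

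The genes most like each of 4 members were found by Pearson's r over the 36 combination means among 9839 genes. For Mal-A4 they were SCOT (r = 0.91), which encodes an enzyme of ketone body use, CG18547 (0.90) and CG7953 (0.90). For Mal-B1 they were CG6484 (0.94), the cytochrome P450 gene Cyp6g1 (0.93) and CG3734 (0.92), with 88 genes above 0.8. For Amy-p they were Hacl (0.87), which encodes a lyase of fatty acid alpha-oxidation, CG15093 (0.87) and CG33169 (0.86). For Mal-B2 no gene passed 0.8, and the closest were the P450 genes Cyp309a2 (0.77) and Cyp309a1 (0.74) and CG16704 (0.74).

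Other genes of carbohydrate digestion and sugar use were read from lists. Of 14 other carbohydrate-digesting enzymes, 4 were called among Y haplotypes and 0 among haplogroups: Gal, a beta-galactosidase, and the lysosomal alpha-mannosidase genes LManII, LManV and LManIII. Gal was higher in ZH23, at 0.64 ± 0.12 (adjusted p = 0.00108), and LManII, LManV and LManIII were higher in B11, at 0.40, 0.67 and 0.73 (0.0459, 0.0196 and 0.0196). Of 9 genes of glycogen and trehalose metabolism 1 was called among Y haplotypes, Pgm1 (phosphoglucomutase, adjusted p = 0.0425), and 0 among haplogroups. Of 19 genes of sugar sensing and hormones, the insulin receptor gene InR was called among haplogroups (0.01), and the insulin-like peptide gene Ilp3 and the gut hormone gene CCHa2 among Y haplotypes (0.00404 and 0.0266). CCHa2 and Ilp3 were higher in B11, at 0.54 ± 0.12 and 0.74 ± 0.18 (0.00608 and 0.0121). Ilp3 was low, at 0.373 to 6.49 CPM with a mean of 2.33, where the mean of CCHa2 was 80.6. Of 8 sugar transporters 0 were called in either test.

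Other midgut enzymes and eye genes differed between Y haplotypes. Of 7 tested midgut lipases and lysozymes, 5 were called among Y haplotypes and 4 were higher in both B11 and ZH23, with LysD, a midgut lysozyme, at 4.11 ± 0.48 and 2.87 ± 0.53 and the lipase gene Lip3 at 1.43 ± 0.23 and 0.98 ± 0.24. Of 27 midgut serine proteases, 5 were called among Y haplotypes, and Jon99Ciii was at 1.64 ± 0.23 in B11 and 1.09 ± 0.24 in ZH23. The list as a whole did not move this way, with a median log2 fold change over the 27 of 0.04 in B11 and -0.09 in ZH23. Of them 4 were called higher in B11 and 2 in ZH23, where 1.95% and 1.16% of all genes were. All 5 eye markers were called among Y haplotypes and higher in B11, with ninaE, the main rhodopsin, at 0.70 ± 0.14, and 0 of 5 were called in ZH23, where their median log2 fold change was 0.44. The summed level of the 5 eye markers ran from 1329 to 5219 CPM in B11 with a median of 3389, from 1342 to 4389 in ZH23 with a median of 2842, and from 1432 to 1917 in N03 with a median of 1610. The part of these shifts in the Mal-B1 and Amy-p results was not tested. Of 10 genes that mark midgut cell types 0 were called among haplogroups or Y haplotypes, and their summed level over all libraries was 216 to 665 CPM. Testis, accessory gland and flight muscle markers also had 0 calls in both tests, of 8, 6 and 5 genes, and of 3 tested fat body markers apolpp was called among Y haplotypes. In the contrast of B38, where Mal-A4 was higher, 2.88% of all genes were called lower and 6.85% higher. Of 6 accessory gland markers 3 were called lower there, with a median log2 fold change of -0.35 over the 6. Their summed level was 2730 to 4742 CPM in B38 and 3229 to 6233 CPM elsewhere. In that contrast 2 of 10 midgut cell type genes were called higher, pros and Dh31, which mark enteroendocrine cells among midgut cells. Since whole flies were read, reads of these genes from outside the midgut could not be set apart. The median over the 10 was -0.10, and their summed level was 275 to 665 CPM in B38 and 216 to 565 elsewhere. Of these 2 lists 0 genes were called in I02. Their part in the Mal-A4 result was not tested.

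Among haplogroups, 5 of the 27 midgut proteases were called, with Jon25Bi at 0.77 ± 0.18 in B38 (adjusted p = 0.00722) and -1.27 ± 0.21 in N23 (0.00124), and Jon65Ai at 0.70 ± 0.16 in I02 (0.0382) and -1.10 ± 0.18 in N23 (0.00162). Over the 27 the median log2 fold change was 0.05 in B38, 0.17 in I02 and -0.22 in N23. In B38 4 were called higher and 1 lower, in I02 3 higher and in N23 5 lower. Of all genes 6.85% were called higher and 2.88% lower in B38, 0.337% higher in I02 and 0.0962% lower in N23. Mal-A4 was higher in the same B38 and I02. In N23 its log2 fold change of -0.60 was not called.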

How the data were processed

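RNA from pools of 10 whole males was extracted with Trizol and made into Lexogen QuantSeq 3' FWD libraries, per the labels' protocols. Per the submitters' processing notes, the tools were STAR 2.6, HTSeq 0.11.0, Trimmomatic 0.36, FastQC 0.11.5 and a DESeq2 of unstated version. Build, annotation and strand setting were not given in the sources used here. Analysis starts from unnormalized gene counts, 72 columns of whole reads, as deposited by the authors. Of 17324 features, 17037 had a symbol in Ensembl's annotation of BDGP6.54, which also gave positions by gene identifier. Per the labels, batch 2 holds 18 libraries, replicate 2 of each combination with N01, N02 or N23, and batch 1 the other 54.

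Genes were filtered with filterByExpr of edgeR 4.0.16 in R 4.3.3, scaled by TMM and modelled over the 72 libraries together by quasi-likelihood, with a mean for each of the 36 combinations and a term for batch. This left 35 residual degrees of freedom. Contrasts average over the other factor, p-values are 2-sided and adjusted over 12470 genes, and each standard error is implied by its F statistic. Log2 CPM used a prior count of 2. Each library's depth, and thus its counting error, follows from its total, and the spread between libraries enters the tests. The fit was tested on simulated data. Alternatives were DESeq2 size factors, no filter, limma-voom (limma 3.58.1), DESeq2 1.42.0, fits without interaction or batch, each batch alone, a replicate block, 6 libraries left out, each of 72 libraries left out in turn, and CG31326 as a term. The DESeq2 tests of haplogroups, Y haplotypes and single contrasts left out the interaction, and so did the fit to batch 2 alone.

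The genes, lists and tests were chosen with earlier results of these data known. Named are all 10 genes, up to 4 genes of each other list by the smallest p in the haplogroup or Y test, and the 3 genes most like Mal-A4, Mal-B1, Mal-B2 and Amy-p among genes whose mean log2 CPM reached 2. Amy-d, Mal-A5, CG31326, chp and asRNA:CR44894 were named after their values were seen. The authors' normalized table was left out.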

Additional observations from a re-analysis of the deposited data

How the results depend on the processing

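Under 10 other settings the number of the 10 genes called among haplogroups was 1 or moved to 2 with DESeq2 size factors, by DESeq2's test, with a replicate block and without the 6 libraries of over 20% multiply aligned reads, to 4 without the batch term, and to 0 in batch 2 alone, which lacks 3 haplogroups. Among Y haplotypes it was 2 or 3, except for 1 by limma-voom, without the batch term, in batch 1 alone and in batch 2 alone. Calls in single contrasts were 4 to 8 of 120. The interaction had 0 throughout. With CG31326 as a term, chosen after seeing the data, the haplogroup count was 2, the Y count 0 and the contrast count 3, and Mal-B1 in ZH23 turned from 0.93 to -0.14; the cause was not tested. Leaving out each library in turn gave 1 to 3 genes among haplogroups, 1 to 4 among Y haplotypes and 0 in the interaction; the count of contrast calls was not recomputed there. For all genes the calls moved from 254 to between 4 and 1639 among haplogroups and from 517 to between 10 and 1128 among Y haplotypes.

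Replicate numbers did not meet the rule for paired samples, a correlation over 0.1 in every pair: deviations of same-numbered libraries had a median correlation of 0.10 over 630 pairs of combinations, with a lowest of -0.58 and 314 over 0.1, and a median of 0.17 with 99 over 0.1 in the 153 pairs within batch 1. Missing this rule does not show that replicate number had no effect. The 6 libraries of over 20% multiply aligned reads were all of replicate 1. With a replicate block 2 genes were called among haplogroups, 3 among Y haplotypes and 0 in the interaction, and 8 contrasts were called. The smallest count of a member in a library was 90, so depth limits these results less than the spread between replicates, which enters every test.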
